A study of Homo sapiens with 6 samples.

Results

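The 9 genes described here encode initiator caspases (CASP2, CASP8, CASP9 and CASP10), the effector caspase CASP6, the adaptors APAF1 and FADD, and the inhibitors CFLAR and XIAP. The set is defined by gene symbol, as members of the caspase machinery, with no threshold on measured values, although it was drawn up with earlier results of these data known, and all 9 were present among the 28491 genes of the count table. The cells were HCT116, a human colorectal carcinoma line, harvested 48 h after transfection either with a control plasmid (NC, 3 libraries) or with a plasmid that expresses RBM47 (RBM47-OE, 3 libraries). RBM47 is an RNA-binding protein, and the study asked whether its overexpression alters genes of apoptosis and proliferation. The plasmid backbone is named pcDNA3.1-3xFlag in the sample labels and pIRES-hrGFP-1a in the methods. The overexpressed protein therefore came from a transient plasmid in a transfected population of cells, and no source used here says whether the libraries of a group came from separate cultures, so p-values measure only the spread between these libraries.

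Caspases are proteases that wait in the cell as inactive precursors. In the extrinsic route, ligand-bound death receptors recruit FADD, which gathers CASP8 and CASP10, and CFLAR (also called FLIP) occupies the same complex without being a protease. In the intrinsic route, cytochrome c released from mitochondria assembles APAF1 into the apoptosome, which activates CASP9. XIAP binds and blocks CASP9 and the effector caspases, and CASP2 is activated on a platform built by PIDD1 and CRADD. These steps are controlled largely at the protein level, and RNA-seq measures only the transcripts that supply the proteins.

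CASP8, CASP10 and CFLAR lie side by side on the plus strand of chromosome 2 of GRCh38. CFLAR spans 201116154 to 201176687, CASP10 follows after 6184 bases at 201182872 to 201229428, and CASP8 follows after another 4014 bases at 201233443 to 201361836. The coding bases at the protease active site are shown because they set CFLAR apart from its neighbours. Each window below was read from a GENCODE 44 transcript, 5′ to 3′, and the capitals mark the catalytic cysteine codon, or in CFLAR the codon at the same distance from the att cag or atc cag bases that open all 3 windows. The windows lie within exon 8 of 9 in CASP8 (chr2:201285082-201285102), exon 9 of 10 in CASP10 (chr2:201209339-201209359) and exon 9 of 10 in CFLAR (chr2:201160707-201160727), all coding.
CASP8: attcaggctTGTcagggggat
CASP10: atccaggccTGCcaaggtgaa
CFLAR: attcagaacTATgtggtgtca
CASP8 and CASP10 carry a cysteine codon, TGT or TGC, whereas CFLAR carries TAT, a tyrosine codon. The counts described next are sums over all isoforms of a gene, so the long and short forms of CFLAR were not separated.

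Between 26792409 and 35477983 reads fell on genes in each library. RBM47 itself had 19.1, 23.1 and 19.2 CPM (counts scaled to library size with TMM factors) in NC replicates 1, 2 and 3 and 1267.3, 1201.1 and 1202.1 CPM in RBM47-OE, so the labels hold in all 6 libraries. Of 8 epithelial markers, 7 were above 12.9 FPKM in every library, while VIL1 was at most 0.09 FPKM. Of 6 markers of other cell types, the highest was ACTA2 at 2.90 FPKM, and PTPRC was not in the FPKM table. In RBM47-OE, levels fell with the GC content of exons across the transcriptome, and more so in replicates 2 and 3 than in replicate 1. A further fit subtracted, library by library, the curve of expression on exonic GC content (called the GC offset here). That fit takes out any change that runs along GC content.

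Of the 9 genes, only XIAP rose and only FADD fell in RBM47-OE at an adjusted p-value under 0.05 (edgeR's quasi-likelihood test, Benjamini-Hochberg over all genes tested). All 9 passed the filter on low counts and were tested among 16260 genes. Across all tested genes 19.1% were called higher and 16.9% lower, and 35.9% in either direction, so 2 of 9 lay below the share of genes in general. None of the 9 met the thresholds of the study (unadjusted p under 0.01 and fold change over 1.5), which 2.38% of all genes met in edgeR (1.51% higher and 0.873% lower). At an unadjusted p under 0.05, 5 of the 9 passed in edgeR against 44.4% of all tested genes, and DESeq2 and limma also found 0 at the thresholds of the study. DESeq2 on all genes likewise called 1 member higher and 1 lower. Of the 12472 genes that it gave an adjusted p, 24% were called higher, 20.8% lower and 44.7% in all. On the filtered genes the shares were 23.6%, 20.3% and 43.9% of 13107, so they are not on the same base as those of edgeR. By number, DESeq2 on the filtered genes called 3094 higher and 2664 lower, and edgeR 3100 and 2740. With limma on log2(FPKM + 1), 2 members were higher and 1 lower against 16.3% and 9.02% of genes (25.3% in all), and with a replicate block 1 and 1 against 18.2% and 15.4% (33.6% in all). The median log2 fold change was 0.084 over the 9 genes and 3.96e-05 over all tested genes. With the GC offset, neither XIAP nor FADD was called, and CASP2 was called lower, where 6% of 16229 genes were called higher, 8.47% lower and 14.5% in all.

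**Figure D1:**
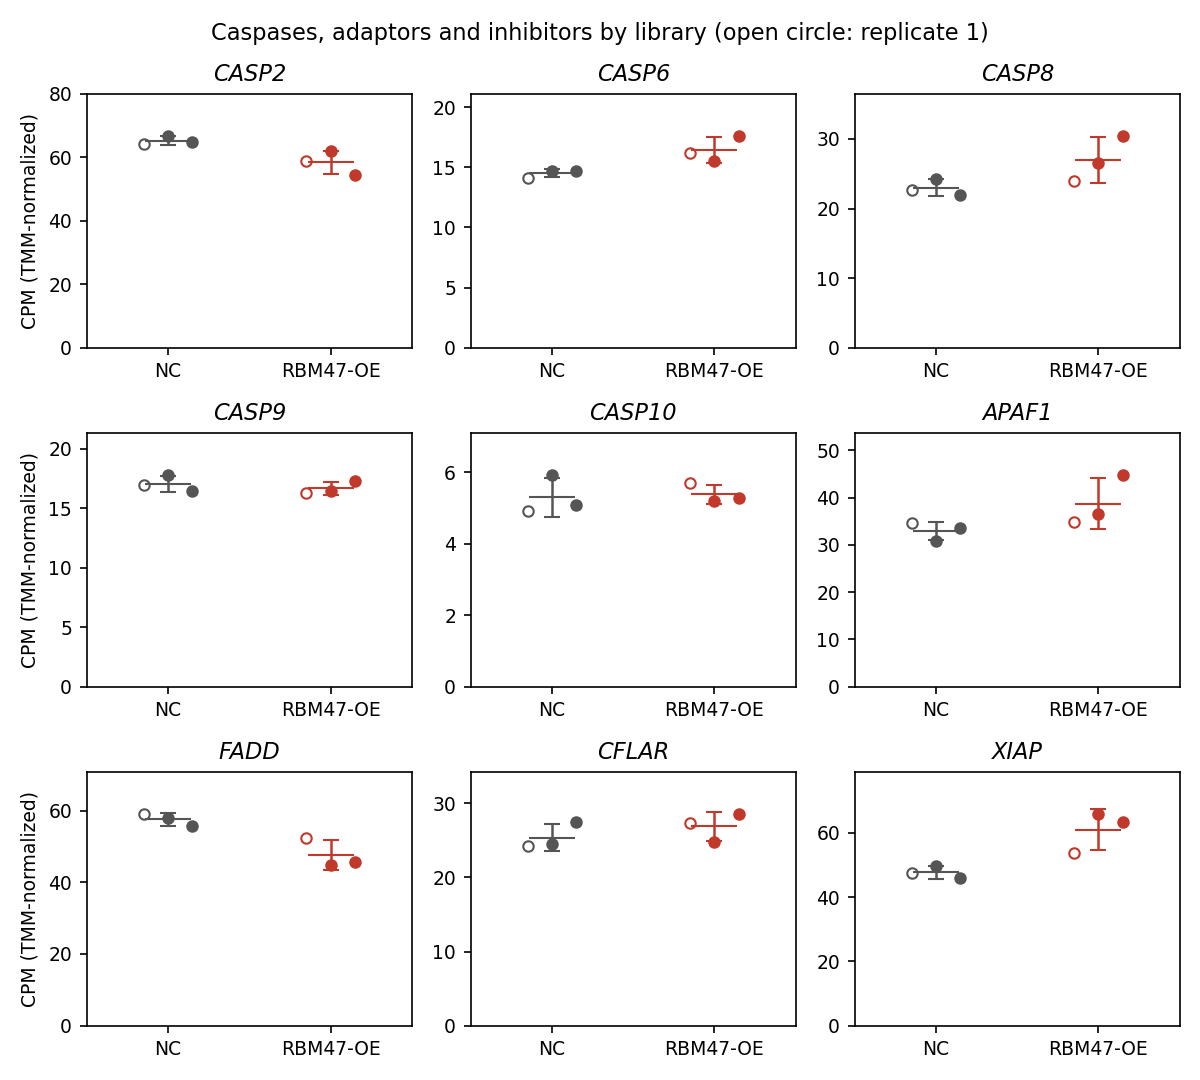
CPM (TMM-normalized, linear axis from 0) of the 9 genes in each NC (grey) and RBM47-OE (red) library, with the mean and SD of 3 libraries and replicate 1 drawn as an open circle. XIAP stands higher in all 3 RBM47-OE libraries, at 53.7 to 65.9 against 45.8 to 49.8 in NC, and FADD lower, at 44.9 to 52.4 against 55.6 to 59.1.

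The order of the genes by level was read on the FPKM scale, which divides by gene length. In NC, FADD was far above the rest at 29.0 ± 0.808 FPKM (SD, n = 3). CASP2 at 7.0 ± 0.177 and CASP6 at 6.44 ± 0.165 FPKM came next, followed by XIAP at 4.57 ± 0.198 and APAF1 at 3.67 ± 0.203 FPKM. CASP9 at 2.79 ± 0.119 and CASP8 at 2.73 ± 0.151 FPKM did not differ beyond their spread. CFLAR at 0.973 ± 0.0757 and CASP10 at 0.607 ± 0.0643 FPKM were lowest. In RBM47-OE the order of CASP2 and CASP6 was exchanged, with 6.59 ± 0.513 FPKM for CASP2 and 7.65 ± 0.465 for CASP6, and CASP8 at 3.38 ± 0.436 FPKM moved above CASP9 at 2.86 ± 0.118. The length behind the FPKM of CFLAR is that of a gene model with 22478 exonic bases, 12714 of them in the 3′ UTR of the canonical transcript. Reads on CFLAR, not divided by length, were no fewer than those on CASP8, with 25.4 ± 1.83 CPM in NC against 23.0 ± 1.22 (SD, n = 3). The gene model of CASP8 has 7237 exonic bases, so these reads do not compare the levels of the transcripts.

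CASP8, the initiator of the death receptor route, had 22.7, 24.3 and 21.9 CPM in NC replicates 1, 2 and 3 and 24.0, 26.6 and 30.5 CPM in RBM47-OE. RBM47-OE replicate 1 lay inside the range of NC, so the groups overlapped by CPM. On the FPKM scale they did not, at 2.61 to 2.90 in NC and 2.93 to 3.80 in RBM47-OE. CASP8 stood at a log2 fold change of 0.23 (edgeR adjusted p = 0.063, standard error 0.097). Leaving out RBM47-OE replicate 1 brought it to 0.32 (edgeR adjusted p = 0.0053) and leaving out replicate 3 to 0.14 (edgeR adjusted p = 0.31). With the GC offset the sign changed to -0.081 (edgeR adjusted p = 0.54). CASP10, its close relative, was the least abundant of the 9, at 4.91 to 5.93 CPM in NC and 5.20 to 5.70 CPM in RBM47-OE. CASP10 stood at a log2 fold change of 0.019 with a 95% interval of -0.28 to 0.32, from 129 to 205 counts per library. Changes of either sign inside that interval are therefore compatible with the data. With the GC offset CASP10 was at -0.082 (edgeR adjusted p = 0.75).

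CASP9, the apoptosome protease, had 16.9, 17.8 and 16.4 CPM in NC and 16.3, 16.4 and 17.3 CPM in RBM47-OE, and the ranges of the groups overlapped. Its log2 fold change of -0.033 had a 95% interval of -0.23 to 0.17, and with the GC offset it was 0.11 (edgeR adjusted p = 0.45). CASP6, an effector caspase whose substrates include nuclear lamins, had 14.2, 14.7 and 14.7 CPM in NC and 16.2, 15.5 and 17.6 CPM in RBM47-OE, without overlap. The log2 fold change of CASP6 was 0.18 (standard error 0.10, edgeR adjusted p = 0.18), and 0.094 with the GC offset (edgeR adjusted p = 0.54). CASP6 was called higher by limma, at 0.22 on log2(FPKM + 1) and 0.24 on log2(FPKM + 0.1), both with a limma adjusted p of 0.032. FPKM is scaled by library total, and edgeR with library totals put CASP6 at 0.24 without calling it (edgeR adjusted p = 0.069). CASP6 shares 98 exonic bases with MCUB, which lies on the opposite strand and had 124% of the counts of CASP6 on average. Whether strand was used in counting is not given in the sources used here, so reads from that shared stretch cannot be told apart.

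CASP2 (chromosome 7, 143288215 to 143307696) had 64.0, 66.7 and 64.7 CPM in NC and 58.8, 61.8 and 54.6 CPM in RBM47-OE. All 3 RBM47-OE libraries were below all 3 NC libraries, although on the FPKM scale RBM47-OE replicate 2 at 7.15 lay inside the NC range of 6.84 to 7.19. Without the offset CASP2 was at -0.16 on the log2 scale (edgeR adjusted p = 0.099, standard error 0.074). With it CASP2 was at -0.27 (edgeR adjusted p = 0.0049, standard error 0.061). In that fit, with each library left out in turn, an alternative chosen after seeing the data, CASP2 stayed between -0.30 and -0.21 with edgeR adjusted p-values of 0.0040 to 0.047. No alternative without the offset called CASP2. Leaving out a library there gave -0.20 to -0.11 (edgeR adjusted p up to 0.30). Library totals gave -0.095 (edgeR adjusted p = 0.36), and limma on log2(FPKM + 1) gave -0.077 (limma adjusted p = 0.43). CASP2 was the only member called lower with the offset, and the change is 1 of 1374 such calls among all genes.

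APAF1, the scaffold of the apoptosome, had 34.7, 30.9 and 33.5 CPM in NC and 34.8, 36.6 and 44.8 CPM in RBM47-OE. The groups did not overlap, but RBM47-OE replicate 1 and NC replicate 1 were nearly equal, and replicate 3 stood above the other RBM47-OE libraries. Its log2 fold change of 0.23 (standard error 0.093) missed the threshold with an edgeR adjusted p of 0.054. It passed without RBM47-OE replicate 1, at 0.31 (edgeR adjusted p = 0.0058), and was at 0.11 without replicate 3 (edgeR adjusted p = 0.36). With the GC offset it was -0.013 (edgeR adjusted p = 0.93).

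FADD (chromosome 11, 70203296 to 70207390, plus strand), the adaptor that links death receptors to CASP8, had 59.1, 57.9 and 55.6 CPM in NC and 52.4, 44.9 and 45.7 CPM in RBM47-OE. Every RBM47-OE library was below every NC library, with replicate 1 closest to NC. The means were 57.5 ± 1.77 and 47.7 ± 4.10 CPM (SD, n = 3), a log2 fold change of -0.27 (edgeR adjusted p = 0.0085, standard error 0.078). In the fit with the GC offset FADD was at -0.090 (95% interval -0.21 to 0.034, edgeR adjusted p = 0.35). Without NC replicate 1 (-0.25, edgeR adjusted p = 0.053) and without RBM47-OE replicate 2 (-0.23, edgeR adjusted p = 0.052) FADD just missed the threshold with a fold of similar size. An uncharacterized lncRNA gene on the opposite strand shares 1011 exonic bases with FADD and had 5.16% of its counts.

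CFLAR, the inhibitor that competes at FADD, had 24.2, 24.5 and 27.5 CPM in NC and 27.3, 24.8 and 28.6 CPM in RBM47-OE. The groups overlapped, and the log2 fold change of 0.084 had a 95% interval of -0.10 to 0.27. CFLAR was not called in any of 18 alternative fits, in which its value ran from 0.011 to 0.14, and with the GC offset it was 0.012 (edgeR adjusted p = 0.95).

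XIAP (chromosome X, 123859712 to 123913972, plus strand), the inhibitor of CASP9 and effector caspases, had 47.5, 49.8 and 45.8 CPM in NC and 53.7, 65.9 and 63.3 CPM in RBM47-OE. All RBM47-OE libraries were above all NC libraries, again with replicate 1 nearest to NC. The means were 47.7 ± 2.01 and 61.0 ± 6.41 CPM (SD, n = 3), a 1.28-fold difference. On the log2 scale this was 0.35 (edgeR adjusted p = 0.0016, standard error 0.082). It stayed called with each library left out, between 0.29 and 0.44 (edgeR adjusted p at most 0.020). With the GC offset it was 0.061 (95% interval -0.064 to 0.19, edgeR adjusted p = 0.56).

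**Figure D2:**
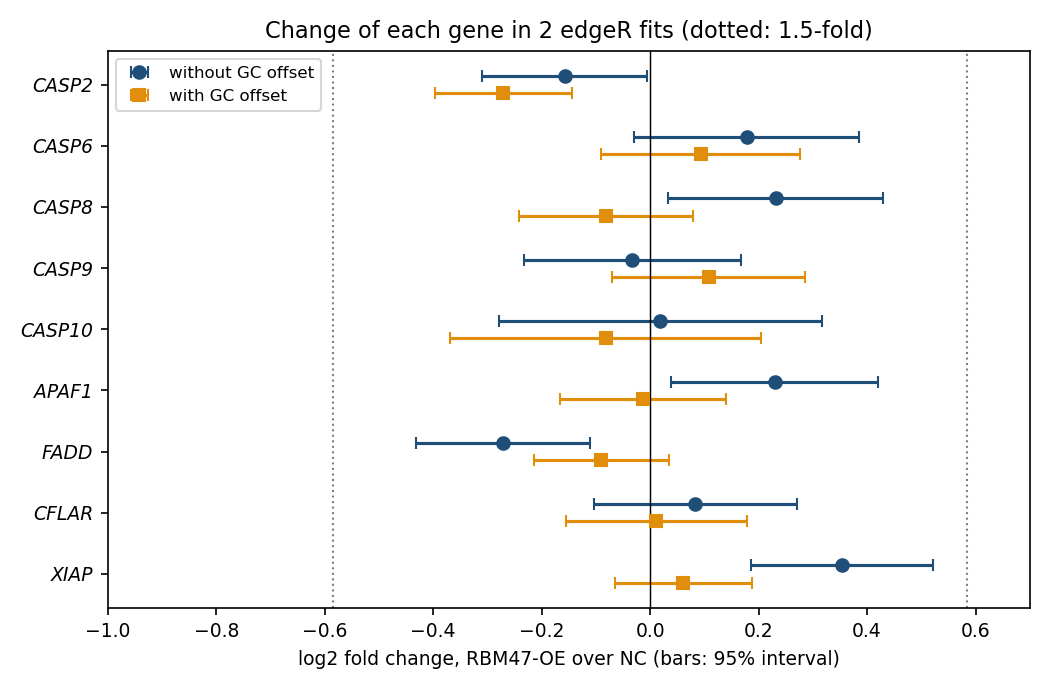
Log2 fold change of RBM47-OE over NC with its 95% interval for the 9 genes, in edgeR without (blue circles) and with (orange squares) the GC offset, with dotted lines at a 1.5-fold change. XIAP at 0.35 and FADD at -0.27 move to 0.061 and -0.090 with the offset, while CASP2 moves away from 0, from -0.16 to -0.27.

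In all, 5 of the 9 genes had CPM values that did not overlap between the groups (CASP6, APAF1 and XIAP above, CASP2 and FADD below). Over all tested genes 46.5% did not overlap, so the count of 5 is close to the background.

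The 9 genes differ in base composition, which the choice of genes did not use. Exonic GC content was lowest in CASP8 at 39.1%, XIAP at 39.9% and APAF1 at 41.6%, and highest in CASP9 at 53.6% and FADD at 57.7%, against a median of 49.0% over the tested genes. The other 4 genes lay between 44.9% and 46.0%. The fitted curve of all tested genes was at 0.31, 0.29 and 0.24 (log2, RBM47-OE minus NC) at the GC content of CASP8, XIAP and APAF1, and at -0.18 at that of FADD. The genes' own log2 fold changes were 0.23, 0.35, 0.23 and -0.27. CASP2 was the member farthest from the curve, at -0.16 where the curve was at 0.11. At the GC content of XIAP the RBM47-OE curves were at 0.015 (replicate 1), 0.19 (replicate 2) and 0.22 (replicate 3), and the NC curves between -0.16 and -0.12. The part of the GC trend in the changes of these genes was not tested beyond the fit with the offset.

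**Figure D3:**
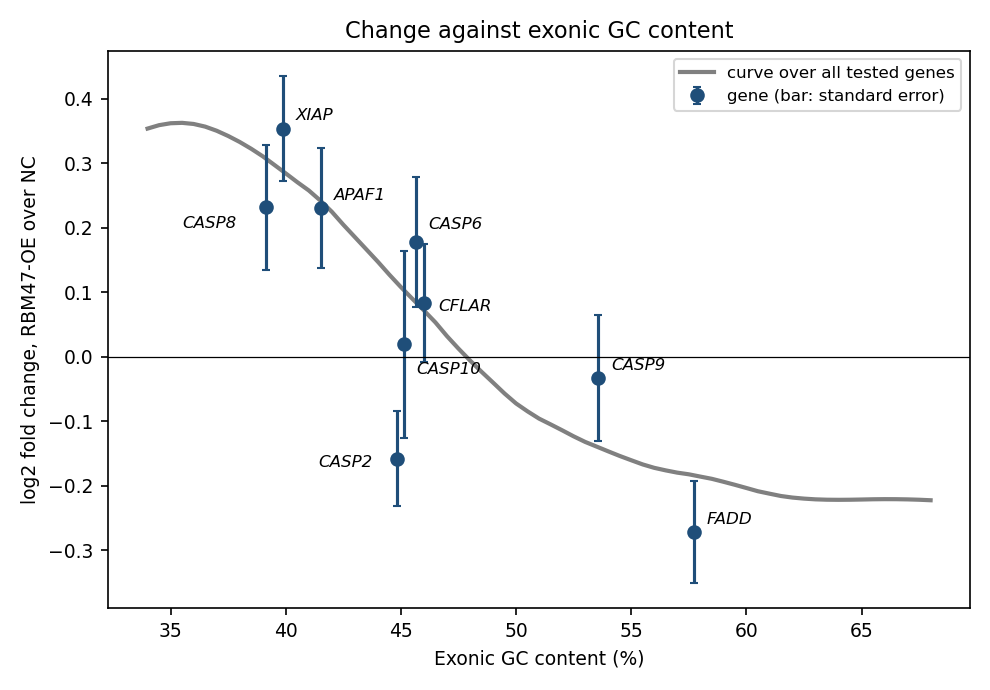
Log2 fold change (RBM47-OE over NC, without the GC offset, bars of 1 standard error) of the 9 genes against exonic GC content in percent, with the curve fitted over all tested genes in grey. CASP8, XIAP and APAF1 sit at low GC content and above 0, FADD at 57.7% sits below 0, and CASP2 is the gene farthest from the curve.

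RBM47 binds RNA, and AU-rich stretches of 3′ UTRs are sites where many such proteins act, so the 3′ UTRs of the canonical transcripts were described. The pentamer ATTTA, searched on the transcribed strand with overlaps allowed, was in 71.3% of the 3′ UTRs of 13192 tested genes, a count that grows with length. XIAP held 20 copies in 6791 bases, or 2.95 per kb, and CFLAR held 23 in 12714 bases, or 1.81 per kb. CASP8, APAF1 and CASP10 had 2.69, 2.44 and 1.78 per kb, against a median of 1.59 over all tested genes. CASP2 and CASP9 were below that median, at 1.52 and 0.649 per kb. FADD had 0 in 917 bases. CASP6 had the highest density of the 9, with 3 copies in 702 bases (4.27 per kb). ATTTA holds no G or C, so its density also depends on base composition. The 3′ UTRs of XIAP, APAF1, CASP8 and CASP6 had 37.6%, 37.7%, 37.8% and 38.5% GC. Those of CFLAR, CASP2, CASP10, CASP9 and FADD had 43.2%, 44.6%, 45.8%, 49.0% and 52.2%. No density expected from length and composition was computed, so these values show neither an excess nor a lack of the pentamer. A match says only that these letters are present.

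Ratios between members were also taken inside each library, since such a ratio does not depend on how libraries are scaled. For 4 pairs, an exact two-sided permutation test over 3 against 3 libraries was used, whose smallest possible p is 0.10. The ratio of CASP9 to its inhibitor XIAP, by FPKM, was 0.607, 0.611 and 0.613 in NC and 0.517, 0.426 and 0.465 in RBM47-OE. The NC libraries were nearly identical and all RBM47-OE libraries lay below them, a log2 difference of -0.38 (exact permutation p = 0.10, adjusted over 4 ratios 0.20). The ratio of APAF1 to CASP9 was 1.39, 1.18 and 1.39 in NC and 1.45, 1.52 and 1.76 in RBM47-OE. It was higher in 3 of 3 RBM47-OE libraries, by 0.26 on the log2 scale (exact permutation p = 0.10, adjusted 0.20).

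The ratio of CASP8 to CFLAR was 2.91, 3.09 and 2.46 in NC and 2.71, 3.34 and 3.30 in RBM47-OE, and the groups overlapped (exact permutation p = 0.40, adjusted 0.40). The ratio of CASP10 to CASP8 was 0.209, 0.234 and 0.222 in NC and 0.229, 0.188 and 0.166 in RBM47-OE, also with overlap (exact permutation p = 0.30, adjusted 0.40). CASP9 is rich and XIAP poor in GC, and between their fold changes in the fit with the GC offset the difference was 0.046 in place of -0.39. For APAF1 against CASP9 it was -0.12 in place of 0.26, so both directions depended on the offset. For CASP8 against CFLAR it was -0.093 in place of 0.15, and for CASP10 against CASP8 it was -0.0012 in place of -0.21.

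**Figure D4:**
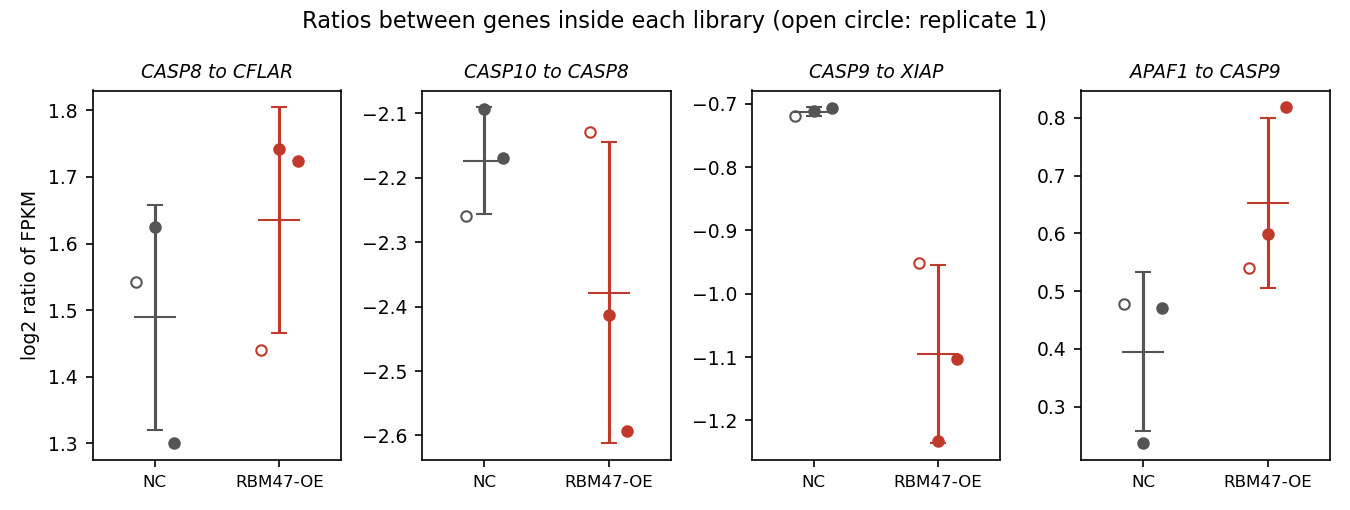
Log2 ratio of FPKM between pairs of members inside each NC (grey) and RBM47-OE (red) library, with the mean and SD of 3 libraries and replicate 1 as an open circle, each panel on its own axis. The ratio of CASP9 to XIAP is lower and that of APAF1 to CASP9 higher in all 3 RBM47-OE libraries, and the other pairs overlap.

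The libraries' patterns of XIAP and FADD were compared with those of 10344 other genes of at least 3 log2 CPM on average. The genes most like XIAP over the 6 libraries were MDM1, C5orf51 and SNAP29 (Pearson r of log2 CPM 1.000, 0.999 and 0.997), with log2 fold changes of 0.52, 0.42 and 0.14. Those most like FADD were CISD3, SFSWAP and APEH (r of 1.000, 0.997 and 0.997), at -0.38, -0.18 and -0.34. These are the highest of many correlations over 6 libraries that share the same group difference, and they are given as a description only.

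Of 62 other genes of the pathway, 56 were in the count table and 46 were tested. Of these 46, 10 were higher and 12 lower in RBM47-OE at an adjusted p under 0.05, against 19.1% and 16.9% of all genes, with a median log2 fold change of -0.11. In the fit with the GC offset 2 were called higher (BIRC2 and TRADD) and 6 lower, against 6% and 8.47% of all genes, and the median was -0.040. Of the 10 higher and 12 lower genes, 1 and 5 were also called with the offset, and TRADD and PAK2 were called only there.

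Of the ligands that start the extrinsic route, TNFSF10 (TRAIL), TNF, LTA and TNFSF15 had at most 5 counts in any library and could not be tested, and FASLG was not in the table. Of 6 death receptors, TNFRSF10B (a TRAIL receptor) was lower, at -0.22 (edgeR adjusted p = 0.016, and 0.17 with the GC offset), and the other 5 were not called. FAS was at 0.30 (edgeR adjusted p = 0.092), and at 0.055 with the GC offset (edgeR adjusted p = 0.82). Neither of 2 tested decoy receptors was called. Over all tested genes 35.9% were called in either direction, and 14.5% with the GC offset.

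Among 14 tested adaptors and regulators close to the receptors, 3 were higher and 6 lower, against 35.9% of all genes called in either direction, and 1 and 3 with the GC offset, against 14.5%. RIPK1, the kinase shared by death and survival complexes, was at 0.22 (edgeR adjusted p = 0.044, and 0.055 with the GC offset), and CASP8AP2, a CASP8-associated protein, was at 0.46 (edgeR adjusted p = 0.0017) and at 0.13 with the offset (edgeR adjusted p = 0.35). CYLD, a deubiquitinase, was at 0.29 (edgeR adjusted p = 0.023) and at -0.029 with the offset (edgeR adjusted p = 0.86). The 6 lower genes were TRAF2, PEA15, DEDD, DEDD2, RNF31 and RBCK1. TRAF2, the adaptor that brings IAP ligases to TNF receptors, had 31.2, 35.1 and 32.1 CPM in NC and 24.5, 24.5 and 23.6 CPM in RBM47-OE, well apart. Its log2 fold change was -0.44 (edgeR adjusted p = 4.3e-04), and -0.23 with the GC offset (edgeR adjusted p = 0.038). PEA15 and DEDD, which carry the death effector domain that also joins FADD to CASP8, were at -0.35 and -0.31 and were called in both fits (edgeR adjusted p = 0.0054 and 0.043 with the offset). DEDD2, which also carries this domain, was at -0.34 (edgeR adjusted p = 0.0028). With the offset DEDD2 was at -0.12 and not called (edgeR adjusted p = 0.21). TRADD, an adaptor of a TNF receptor, was at 0.0065 and was called only in the fit with the offset, at 0.23 (edgeR adjusted p = 0.025).

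PIDD1, which forms the platform of CASP2, had 17.2, 20.9 and 20.1 CPM in NC and 16.9, 14.9 and 13.3 CPM in RBM47-OE. NC replicate 1 and RBM47-OE replicate 1 were close, and the other libraries were well apart. PIDD1 was lower by edgeR, at -0.37 (edgeR adjusted p = 0.0098), and at -0.15 with the GC offset (edgeR adjusted p = 0.29). CRADD, its partner, was at 0.25 (edgeR adjusted p = 0.12), and at 0.32 with the GC offset (edgeR adjusted p = 0.074).

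In the mitochondrial arm, 2 of 8 genes were higher and 2 lower, against 35.9% of all genes in either direction, and with the GC offset 1 was called, against 14.5%. BAK1, a pore-forming protein of the outer mitochondrial membrane, had the largest fall of the list, from 46.0, 48.0 and 47.2 CPM in NC to 32.7, 31.5 and 29.7 in RBM47-OE. The log2 fold change was -0.59 (edgeR adjusted p = 2.7e-05), and -0.40 with the GC offset (edgeR adjusted p = 3.0e-04). BAX, its relative, was at -0.22 (edgeR adjusted p = 0.024), and CYCS, which encodes the cytochrome c that loads APAF1, was at 0.29 (edgeR adjusted p = 0.0060). APIP was at 0.30 (edgeR adjusted p = 0.011). With the offset BAX, CYCS and APIP were not called (edgeR adjusted p = 0.90, 0.44 and 0.66).

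The other tested IAP genes all passed the test, with BIRC2, BIRC3 and BIRC6 higher and BIRC5 lower, where 35.9% of all genes were called. With the GC offset 2 of the 4 were called, against 14.5% of all genes. BIRC2 (cIAP1), a ubiquitin ligase of TNF receptor complexes, had 37.7, 36.6 and 35.3 CPM in NC and 49.1, 54.9 and 52.8 CPM in RBM47-OE, without overlap. It was called in both fits, at 0.52 (edgeR adjusted p = 4.9e-05) and 0.21 (edgeR adjusted p = 0.029). BIRC3 (cIAP2), a relative of BIRC2, had 8.56, 7.93 and 8.52 CPM in NC and 10.2, 15.2 and 13.3 CPM in RBM47-OE. BIRC3 was at 0.63 (edgeR adjusted p = 7.1e-04), the largest rise of the list, and at 0.27 with the offset (edgeR adjusted p = 0.11). BIRC6 was at 0.30 (edgeR adjusted p = 0.0068) and at 0.058 with the offset (edgeR adjusted p = 0.59). BIRC5 (survivin), also a mitotic protein, was at -0.28 (edgeR adjusted p = 0.0044) and stayed lower with the offset, at -0.19 (edgeR adjusted p = 0.034). XAF1, an antagonist of XIAP, had at most 3 counts per library.

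Of the other caspases on the list, the inflammatory caspase CASP4 had 10.7, 9.75 and 9.73 CPM in NC and 13.5, 13.2 and 17.1 CPM in RBM47-OE. The log2 fold change of CASP4 was 0.54 (edgeR adjusted p = 0.0011), and 0.21 with the GC offset (edgeR adjusted p = 0.19). CASP1 and CASP5 had at most 3 counts in any library. Among 8 caspase substrates, 1 was higher and 1 lower, against 35.9% of all genes called in either direction. These were ROCK1 at 0.25 (edgeR adjusted p = 0.019) and ACIN1 at -0.21 (edgeR adjusted p = 0.019). Neither was called with the offset, where only PAK2 was, at -0.21 (edgeR adjusted p = 0.017), against 14.5% of all genes.

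**Figure D5:**
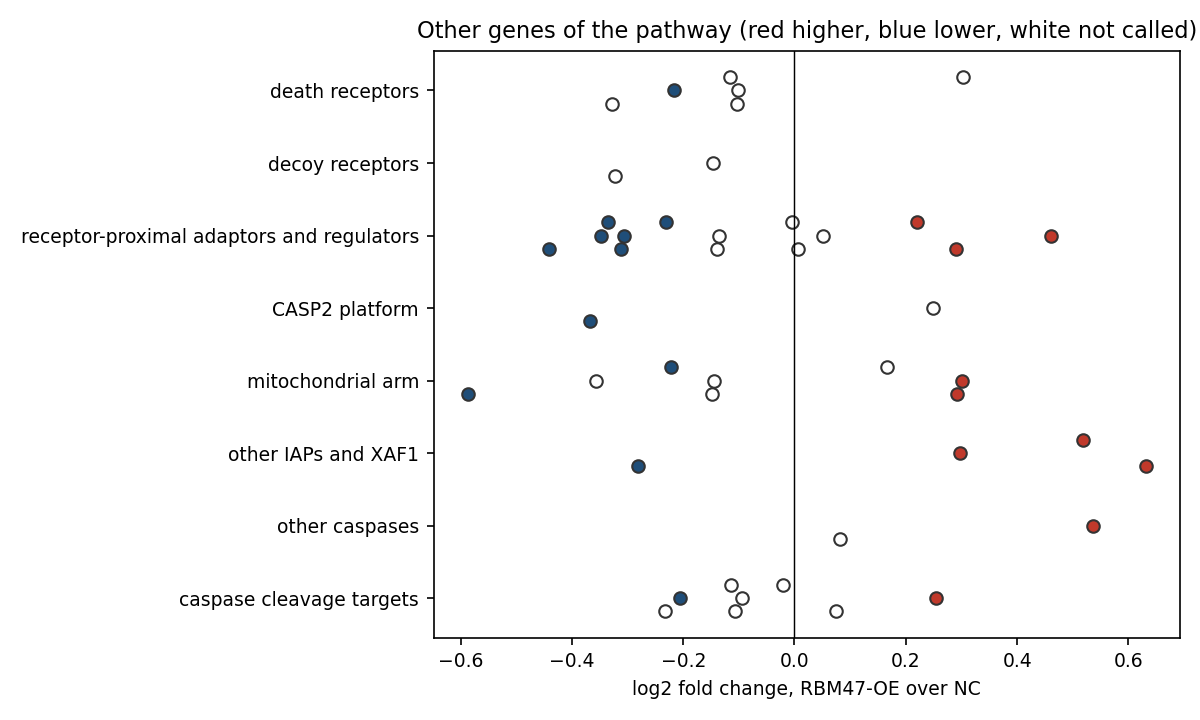
Log2 fold change (RBM47-OE over NC, edgeR without the GC offset) of 46 tested pathway genes by role, in red where higher and in blue where lower at an adjusted p under 0.05, and white where not called. The IAP row runs from BIRC5 at -0.28 to BIRC3 at 0.63, and BAK1 in the mitochondrial row is lowest at -0.59.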

How the data were processed

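The authors trimmed the reads with FASTX-Toolkit, aligned them to GRCh38 with HISAT2 and kept uniquely mapped reads. The deposited counts are unnormalized whole reads per gene and library. FPKM, deposited in a separate table, was computed by the authors from gene length and library total. Setting counts against FPKM, the lengths behind it were proportional to GENCODE 44 union exons for 7 members, and relative to those were 84.4% for CASP10 and 94.5% for XIAP. The counting tool, annotation release and strand setting are not given in the sources used here.

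Genes were tested with edgeR 4.0.16 in R 4.3.3 (filterByExpr with minimum count 10 and total 15, TMM factors, quasi-likelihood test, condition only). Standard errors are the log2 fold change over the square root of F. The GC offset used loess curves (span 0.3) on exonic GC content. DESeq2 1.42.0 and limma 3.58.1, on log2(FPKM + 1) and log2(FPKM + 0.1), were alternatives. Fits were tested on simulated data. Pathway genes named with values by library were the 3 largest rises and 3 largest falls among called, non-overlapping genes; members and lists were chosen with earlier results of these data known, and other pathway genes after their values were seen. A gene of the pathway list is counted but not reported by name here.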

Additional observations from a re-analysis of the deposited data

How the results depend on the processing

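Over 18 alternatives, the number of members called higher kept its value of 1 in 9 and the number called lower in 15. The member called lower was not the same throughout. With the GC offset, alone or with the replicate block, it was CASP2, and FADD was not called (edgeR adjusted p = 0.35 and 0.42). Members higher were 3 with library totals, 2 without a filter on low counts, with at least 10 counts in every library and in limma with a pseudocount of 1 or 0.1 FPKM, and 0 with the GC offset, with the GC offset and replicate block, and in limma without a filter (pseudocount 1), which also gave 0 lower. Leaving out a library gave 1 to 3 higher and 0 to 1 lower. Of the pathway list, 10 genes were called higher and 12 lower, against 2 and 6 with the GC offset (1 and 5 of them called in both fits), 3 and 6 with the GC offset and replicate block, and 1 and 4 with limma without a filter. The lower ones were 7 with either filtered limma fit. Leaving out a library gave 5 to 11 higher and 7 to 13 lower, with 5 and 7 without NC replicate 2 and 6 higher without RBM47-OE replicate 2 or 3. Shares of all genes called were computed only for edgeR with TMM factors, DESeq2, the replicate block, the GC offset and filtered limma on log2(FPKM + 1). Counts in the other alternatives therefore have no background beside them. With library totals the median log2 fold change over all genes was 0.062, against 3.96e-05 with TMM factors.

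Signs turned with the GC offset for CASP8 (-0.081), CASP9 (0.11), CASP10 (-0.082) and APAF1 (-0.013), and with the GC offset and replicate block for the same genes (-0.081, 0.11, -0.081 and -0.017). CASP9 also turned with library totals (0.029) and in the FPKM fits (0.028 with a pseudocount of 1, filtered or not, and 0.036 with 0.1). Leaving out a library, with or without the GC offset (the fits with it were chosen after seeing the data), log2 fold changes ran from -0.13 to 0.32 for CASP8, -0.060 to 0.15 for CASP9, -0.15 to 0.11 for CASP10, -0.093 to 0.31 for APAF1 and -0.028 to 0.14 for CFLAR. The members added to the higher calls were CASP8 and APAF1 with library totals and without RBM47-OE replicate 1, APAF1 with either other filter on counts, and CASP6 in limma. The cause was not tested. Correlations of deviations between same-numbered libraries ran from -0.060 to -0.015. With 3 libraries per group these values cannot show whether replicate numbers pair the samples. With the replicate block alone XIAP (0.35) and FADD (-0.27) remained the members called.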
